A study of Mus musculus with 20 samples.

Results

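FAP libraries from DKO mice were compared with FAP libraries from WT mice across all genes, using 8 of the 20 libraries of the series. The 8 are those whose titles name FAP, 4 FAP DKO and 4 FAP WT. The series measured bulk RNA from 3 cell populations, labelled FAP, Misc and SMP, taken from quadriceps, tibialis anterior and gastrocnemius muscle of mice. FAP is the usual short name of fibro/adipogenic progenitors. DKO is not spelled out in the labels, and is read here, as an assumption from background, as loss of desmin (Des) and nesprin 1 (Syne1). They give no strain, age, sex, sort or treatment for either group, so what DKO and WT mice share beyond the muscles sampled is not known here. They do not say whether animals were pooled or which cells lost the genes. They call the replicates biological without stating that each came from its own animal, so the p-values measure the spread between these libraries.

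Fibro/adipogenic progenitors are mesenchymal cells that lie between muscle fibres and along vessels. They carry the receptor Pdgfra, secrete growth factors that act on muscle stem cells after injury, and are a known source of both fibroblasts and fat cells in damaged muscle. Receptors for clotting proteases, purines, growth factors and matrix tension, the enzymes of glucose and amino acid use, and transcription factors of limb mesenchyme are all active in such cells. What follows is ordered by these roles, with the matrix genes given only as a count.

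Library totals were 6.74 to 11.04 M counts in FAP DKO and 10.46 to 13.04 M counts in FAP WT, and levels are given as counts per M counts (CPM, with M for mega) of TMM-scaled totals, in the order of replicates 1 to 4. The markers of the label were present in each FAP library. Pdgfra lay at 1067, 935, 1192 and 1008 CPM in DKO, against 1205, 1201, 1092 and 1343 CPM in WT, and the surface antigen Ly6a at 527, 431, 453 and 527 CPM in DKO, against 615, 703, 616 and 515 CPM in WT. Cd248, an endosialin of stromal cells, lay at 364, 313, 346 and 331 CPM in DKO, against 526, 449, 439 and 498 CPM in WT. In Misc libraries Ly6a did not pass 7.96 CPM in DKO and 7.54 CPM in WT. None of the 3 passed the test of DKO against WT (adjusted p = 0.802, 0.717 and 0.364 for Pdgfra, Ly6a and Cd248, edgeR), although the Cd248 values of the 2 genotypes did not overlap. With only the FAP libraries in the fit, Cd248 (adjusted p = 0.0016) and Ly6a (adjusted p = 0.0482) both passed as lower in DKO (edgeR). Of 20 FAP identity genes, 1 rose, 1 fell and 18 did not pass (1 passed without DKO 3, WT 1 or WT 2 and 9 with only the FAP libraries in the fit, where a library is named by genotype and replicate number, here and below). The higher one, Meox1, a homeobox factor of mesoderm, lay at 107, 145, 149 and 108 CPM in DKO, against 41.8, 34.9, 31.7 and 36.5 CPM in WT (log2 fold change 1.81 ± 0.18, adjusted p = 1.40e-06).

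Summed markers of other cells differed in part. The endothelial and tendon sums did not overlap between the genotypes, but without 1 gene each, Tek or Thbs4, they overlapped. The median log2 fold change of the members tested was −0.87 for endothelial, −0.51 for Schwann cell and −0.43 for pericyte and smooth muscle markers. For tendon cell markers it was 0.61 and for immune markers 1.16, against −0.015 over all genes tested. The summed CPM of 12 endothelial markers was 147.8 to 265.9 in DKO and 318.9 to 438.3 in WT, and without Tek 26.02 to 100.4 in DKO and 41.08 to 168.1 in WT. The sum of 10 Schwann cell markers was 19.75 to 48.22 in DKO and 40.4 to 81.49 in WT. The sum of 12 immune markers was 25.17 to 82.82 in DKO and 10.74 to 32.58 in WT, that of 11 pericyte and smooth muscle markers 99.74 to 175.7 in DKO and 141.8 to 252.1 in WT. For 10 tendon cell markers the sum was 3178 to 5082 in DKO and 735.8 to 996.5 in WT, with Thbs4 at 2565 to 4178 CPM in DKO and 272 to 368 CPM in WT. Without Thbs4 the tendon sum was 612.6 to 1027 in DKO and 464 to 628.4 in WT. Sums of the 11 satellite cell, 13 muscle fibre, 8 adipocyte and 7 erythroid markers overlapped between the genotypes. Satellite cell markers summed to 25.47 to 39.33 CPM in DKO and 29.8 to 39.25 CPM in WT. Without Msc their sum was 13.81 to 21.16 CPM in DKO and 21.04 to 29.44 CPM in WT, a narrow overlap. Des, taken here to be targeted, is part of both sums. Muscle fibre markers summed to 33.06 to 52.6 CPM in DKO and 27.04 to 42.86 CPM in WT. Adipocyte markers summed to 28.75 to 53.35 CPM in DKO and 39.7 to 79.68 CPM in WT, and erythroid markers to at most 0.47 CPM in DKO and 1.57 CPM in WT. The defining markers Ptprc (leukocytes) and Pax7 (satellite cells) reached at most 1.77 and 0.194 CPM in DKO, and 1.81 and 0.393 CPM in WT. Members of these lists passed singly: Tek, Cspg4, Cdh19 and Des fell, and Cd68, Scx, Thbs4 and Col22a1 rose. Pnpla2 (adipocyte) was lower and Msc (satellite cell) higher, with calls lost without DKO replicate 1 (0.0658), DKO replicate 3 (0.0771), DKO replicate 4 (0.0644), WT replicate 1 (0.0677), WT replicate 3 (0.0873) or WT replicate 4 (0.066) for Pnpla2, and without DKO replicate 2 (0.0723) for Msc (edgeR adjusted p in parentheses). Whether other cells had a part in the results below was not tested, and in bulk RNA fewer cells of a type and less RNA per cell cannot be told apart.

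Sex-linked transcripts, looked at after the values were seen, also moved with genotype. Ddx3y, a Y-linked helicase gene, lay at 0, 0.313, 144.1 and 0.098 CPM in DKO, against 121.4, 123.5, 119.2 and 95.7 CPM in WT. Xist, which is transcribed from the inactive X chromosome, lay at 397.4, 373.7, 0.387 and 530.3 CPM in DKO, against 56.4, 47.0, 105.0 and 126.4 CPM in WT. DKO replicate 3 was the only FAP DKO library with Ddx3y above 0.313 CPM, while each WT library held both transcripts. The called share was 11.5% of 495 genes on the X chromosome. Beyond these values and those with DKO replicate 3 given below, the part of sex in the results was not tested. In a principal component analysis of the 8 libraries, component 1 held 39.9% of the variance, with DKO at −40.9 to −13.4 and WT at 23.0 to 31.9.

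**Figure D1:**
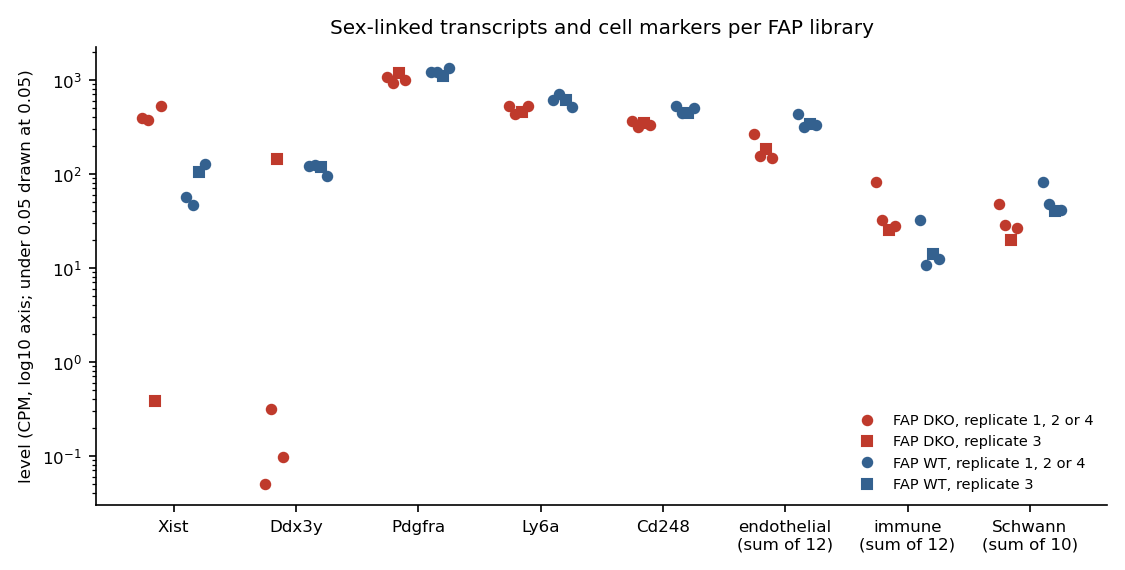
Levels per FAP library (CPM, log10 axis with values under 0.05 drawn at 0.05) of Xist, Ddx3y and the FAP markers Pdgfra, Ly6a and Cd248, and the summed levels of endothelial, immune and Schwann cell markers. Each point is 1 library, DKO left of WT, with replicate 3 drawn as a square: the DKO square is alone among DKO libraries in its Ddx3y level of 144.1 CPM, and the endothelial sums do not overlap, although those without Tek do.

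Across the genome, 1520 of 14179 genes passed the test of DKO against WT, which is 10.7% (edgeR quasi-likelihood test, Benjamini-Hochberg adjusted p below 0.05). DKO was higher for 791 of them (5.58%) and lower for 729 (5.14%). A fold change of at least 2 accompanied the call in 368 genes, 2.6% of those tested. The median log2 fold change, DKO over WT, was −0.015 over all genes tested, and its median size was 0.209 over all genes and 0.629 over the called ones. The total fell to 932 without DKO replicate 2 and 997 without WT replicate 1, and 759 genes were called in each of the 8 fits that left out 1 FAP library. Without DKO replicate 3, the DKO library with high Ddx3y, 1328 were called. With that library as the only FAP DKO library, 1519 of the 1520 called genes kept the sign of their log2 fold change. It lay outside the WT range on the DKO side for 97.4% of the called genes, against 51.6% of all genes tested. It was among the libraries that gave the calls, so these values are no independent check. Each log2 fold change below is given with its standard error, and each adjusted p is from the fit that called 1520 genes. The number of calls in a list can be read against the 10.7% of all genes. The libraries of the 2 genotypes did not overlap for 2716 of the 14179 genes (19.2%). Statements below that the genotypes did not overlap can be read against that share.

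**Figure D2:**
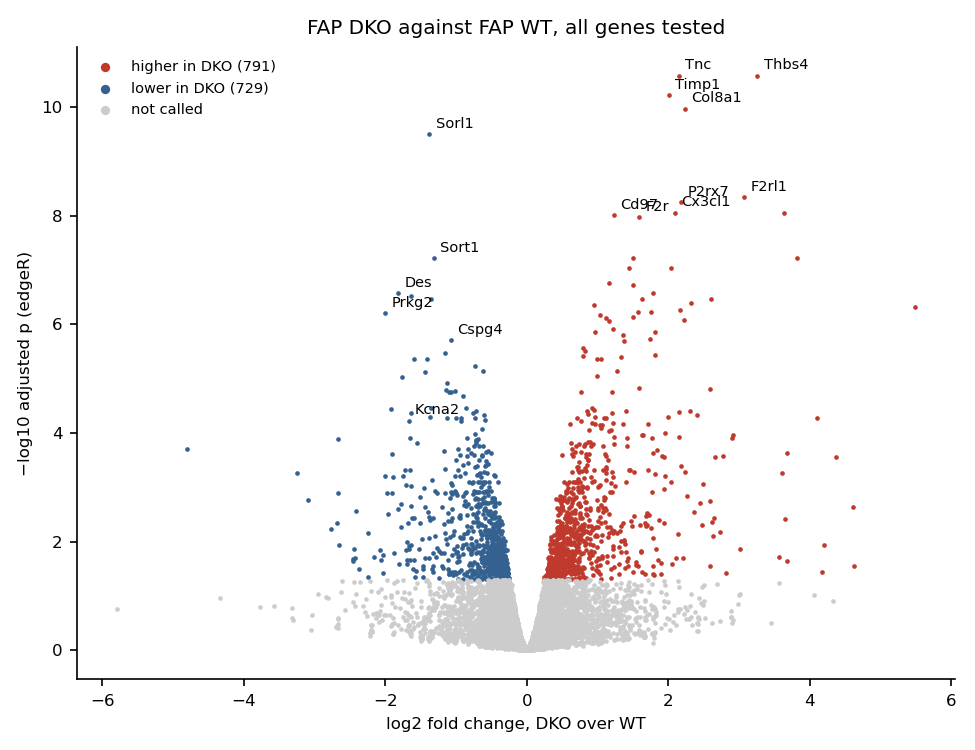
Log2 fold change of DKO over WT FAP libraries (x) against −log10 of the edgeR adjusted p (y) for 14179 genes. Each dot is 1 gene, with the 791 higher and 729 lower genes coloured, and labels mark F2rl1, F2r, P2rx7, Cx3cl1, Cd97, Thbs4, Timp1, Tnc, Col8a1, Sorl1, Sort1, Des, Prkg2, Kcna2 and Cspg4.

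Des, the intermediate filament gene taken to be targeted, lay at 5.04, 5.33, 4.36 and 3.43 CPM in DKO, against 14.2, 18.3, 16.5 and 14.3 CPM in WT (log2 fold change −1.81 ± 0.18, adjusted p = 2.65e-07). The DKO values were all below the WT values but were not at 0. Syne1 lay at 45.4, 37.8, 42.7 and 55.3 CPM in DKO, against 59.8, 55.8, 52.7 and 57.1 CPM in WT (log2 fold change −0.31 ± 0.12, adjusted p = 0.115), with overlapping libraries. No source used here says which exons were removed, and reads from exons that remain do not check a deletion.

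Receptors on the cell surface gave some of the smallest p-values. F2rl1, protease-activated receptor 2, which trypsin-like enzymes cleave, lay at 12.8, 14.3, 15.8 and 16.2 CPM in DKO, against 2.51, 1.42, 1.42 and 1.52 CPM in WT (log2 fold change 3.08 ± 0.23, adjusted p = 4.58e-09). F2r, the thrombin receptor protease-activated receptor 1, lay at 128, 184, 212 and 189 CPM in DKO, against 51.4, 58.97, 56.8 and 70.3 CPM in WT (log2 fold change 1.59 ± 0.13, adjusted p = 1.07e-08). Both were higher in each DKO library than in any WT library. P2rx7, an ATP-gated channel, lay at 21.9, 33.8, 27.4 and 30.96 CPM in DKO, against 6.59, 6.48, 5.01 and 6.85 CPM in WT (log2 fold change 2.19 ± 0.17, adjusted p = 5.58e-09), and its groups did not overlap either. Cd97, an adhesion G-protein-coupled receptor that binds Cd55 and other surface ligands, lay at 118, 125, 134 and 115 CPM in DKO, against 55.5, 46.5, 46.99 and 60.6 CPM in WT (log2 fold change 1.23 ± 0.10, adjusted p = 9.88e-09). Mean levels were 14.7 ± 1.55 CPM in DKO and 1.72 ± 0.532 CPM in WT for F2rl1, and 123 ± 8.40 CPM in DKO and 52.4 ± 6.83 CPM in WT for Cd97 (SD, n = 4 each, here and below). F2r and F2rl1 are neighbours on chromosome 13, at chr13:95601780-95618466 and chr13:95511718-95525240, P2rx7 lies at chr5:122643927-122692336 and Cd97 at chr8:83723245-83741311 (GRCm38.p6, the assembly named mm10).

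Of the peptide and lipid receptor list, which also holds ligands, 7 rose, 7 fell and 35 did not pass, of 49 tested, with a median log2 fold change of −0.09. The endothelin receptor Ednra lay at 24.9, 21.6, 18.7 and 27.5 CPM in DKO, against 10.8, 10.6, 9.93 and 12.8 CPM in WT (log2 fold change 1.07 ± 0.19, adjusted p = 0.000472). The prostaglandin E2 receptor Ptger4 lay at 54.1, 71.9, 73.7 and 76.3 CPM in DKO, against 38.00, 42.3, 37.98 and 43.7 CPM in WT (log2 fold change 0.77 ± 0.11, adjusted p = 5.93e-05). Both rose without overlap. None of 13 prostaglandin and leukotriene synthesis genes passed in edgeR, with 0 at an unadjusted p under 0.05 and 0 called by DESeq2. The angiotensin II receptor Agtr1a fell, with 51.3 ± 8.11 CPM in DKO and 94.5 ± 9.81 CPM in WT (log2 fold change −0.88 ± 0.16, adjusted p = 0.00128). Ramp2 and Calcrl, which together form the adrenomedullin receptor, both fell. Ramp2 fell to 52.9 ± 6.53 CPM in DKO, against 88.1 ± 5.25 CPM in WT (log2 fold change −0.74 ± 0.13, adjusted p = 0.00043). Calcrl fell to 99.3 ± 8.72 CPM in DKO, against 153 ± 15.5 CPM in WT (log2 fold change −0.62 ± 0.13, adjusted p = 0.00311). Tac1, the precursor of substance P, lay at 91.4, 181, 147 and 169 CPM in DKO, against 17.98, 38.5, 33.8 and 32.3 CPM in WT (log2 fold change 2.26 ± 0.38, adjusted p = 0.00142). Its receptor gene Tacr1 averaged 0.411 ± 0.259 CPM in DKO and 0.0896 ± 0.0105 CPM in WT, and missed the threshold (adjusted p = 0.0635). Calcrl and Tac1 are outside the rule for named genes and were picked after their values were seen.

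Among amine and purine receptor genes more members fell than rose: 1 rose, 5 fell and 26 did not pass, of 32 tested, with a median of −0.18 (11 passed with only the FAP libraries in the fit). The alpha-1A adrenergic receptor Adra1a lay at 3.73, 4.39, 5.42 and 4.21 CPM in DKO, against 13.3, 15.2, 12.2 and 13.1 CPM in WT (log2 fold change −1.59 ± 0.19, adjusted p = 4.37e-06). The muscarinic receptor Chrm3 averaged 6.04 ± 1.19 CPM in DKO and 10.97 ± 1.15 CPM in WT (log2 fold change −0.87 ± 0.17, adjusted p = 0.00182). Hrh2, a histamine receptor, averaged 0.402 ± 0.290 CPM in DKO and 2.03 ± 0.559 CPM in WT (log2 fold change −2.25 ± 0.53, adjusted p = 0.00686), which is 1 to 8 counts in a DKO library and 16 to 36 in a WT library. All 3 receptors were lower in DKO, as were Nt5e, which makes adenosine outside the cell (log2 fold change −1.07 ± 0.20, adjusted p = 0.00121), and the X-linked amine oxidase gene Maob (log2 fold change −0.75 ± 0.12, adjusted p = 0.000257). P2rx7 was the single member that rose.

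**Figure D3:**
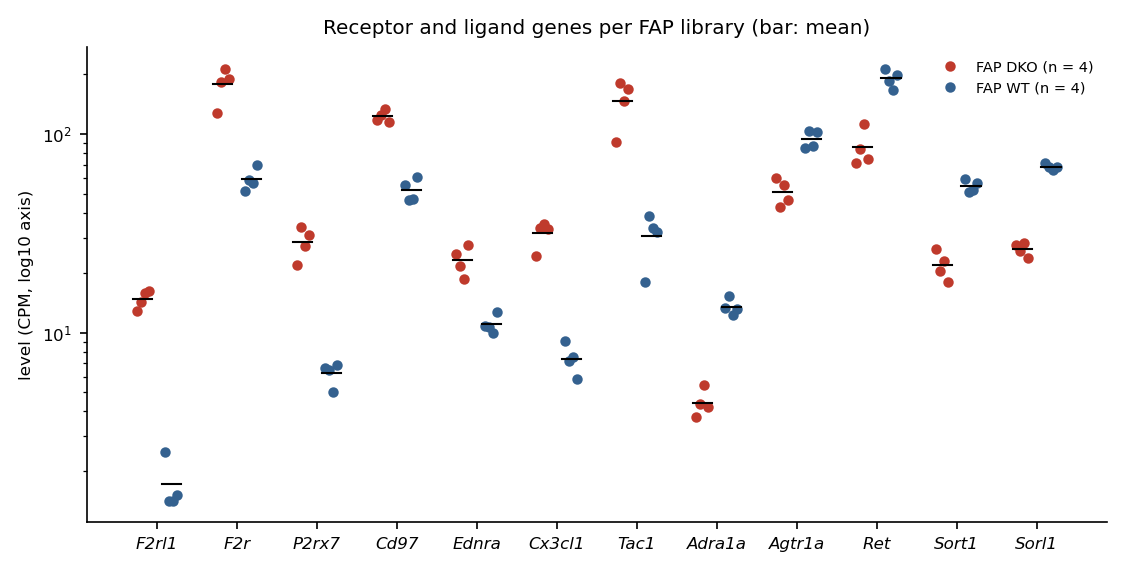
Level per FAP library (CPM, log10 axis) of 12 receptor and ligand genes named in the text. Each point is 1 library, DKO left of WT within each gene, and the bar is the mean of 4 libraries: F2rl1, F2r, P2rx7, Cd97, Ednra, Cx3cl1 and Tac1 are higher in DKO, and Adra1a, Agtr1a, Ret, Sort1 and Sorl1 lower.

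Among adhesion and orphan receptors, 3 rose, 3 fell and 14 did not pass, of 20 tested, with a median of 0.03. Lphn1, a latrophilin, rose to 47.6 ± 3.54 CPM in DKO, against 23.2 ± 3.63 CPM in WT (log2 fold change 1.04 ± 0.11, adjusted p = 6.75e-07). The X-linked Gpr64 (log2 fold change −0.60 ± 0.13, adjusted p = 0.00265) and Gpr126, a receptor needed for myelination (log2 fold change −1.36 ± 0.30, adjusted p = 0.00391), fell. Downstream of these receptors, regulators of G-protein signalling shorten the signal of G-alpha subunits, and 4 rose, 0 fell and 14 did not pass, of 18 tested, with a median of 0.21. Rgs4 lay at 12.03, 13.8, 11.9 and 13.9 CPM in DKO, against 4.32, 1.42, 3.42 and 1.81 CPM in WT (log2 fold change 2.18 ± 0.33, adjusted p = 0.000407). Rgs16 lay at 35.4, 34.00, 21.5 and 32.04 CPM in DKO, against 13.4, 15.00, 15.4 and 12.4 CPM in WT (log2 fold change 1.12 ± 0.18, adjusted p = 0.000266). Rgs2 (log2 fold change 0.55 ± 0.12, adjusted p = 0.00327) and Rgs3 (log2 fold change 0.74 ± 0.18, adjusted p = 0.00838) rose by less. All 4 that passed were on the same side.

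Cyclic nucleotide genes went both ways: 4 rose, 6 fell and 22 did not pass, of 32 tested, with a median of −0.12 (5 passed without DKO 4 and 6 without WT 2). Prkg2, a cGMP-dependent kinase, lay at 4.57, 3.92, 3.10 and 2.45 CPM in DKO, against 14.1, 15.9, 16.7 and 9.23 CPM in WT (log2 fold change −1.998 ± 0.21, adjusted p = 6.17e-07), and no DKO library reached the lowest WT library. The cGMP phosphodiesterase Pde5a fell to 14.6 ± 2.66 CPM in DKO, against 28.1 ± 2.08 CPM in WT (log2 fold change −0.93 ± 0.13, adjusted p = 5.98e-05). Adcy5, an adenylyl cyclase, fell to 15.6 ± 2.42 CPM in DKO, against 29.8 ± 2.44 CPM in WT (log2 fold change −0.94 ± 0.16, adjusted p = 0.000255). Pde4d, a cAMP phosphodiesterase, rose (log2 fold change 0.78 ± 0.17, adjusted p = 0.00367).

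In the TGF-beta pathway, 7 rose, 3 fell and 23 did not pass, of 33 tested, with a median of 0.09. The ligands bind Tgfbr1 and Tgfbr2 and are held in the matrix by latent binding proteins. Neither receptor passed: Tgfbr1 averaged 123 ± 16.99 CPM in DKO and 108 ± 12.8 CPM in WT (adjusted p = 0.347) and Tgfbr2 599.7 ± 10.7 CPM in DKO and 599 ± 38.7 CPM in WT (adjusted p = 0.998). The latent binding protein Ltbp2 rose, at 18.2, 27.1, 17.04 and 32.4 CPM in DKO, against 5.02, 3.34, 6.26 and 4.09 CPM in WT (log2 fold change 2.31 ± 0.28, adjusted p = 3.97e-05). Ltbp1 fell, with 211 ± 32.5 CPM in DKO and 337 ± 30.5 CPM in WT (log2 fold change −0.67 ± 0.11, adjusted p = 0.000174). Ctgf, a matricellular protein and common target gene of the pathway, lay at 502, 826, 901 and 744 CPM in DKO, against 246, 244, 279 and 280.2 CPM in WT (log2 fold change 1.50 ± 0.16, adjusted p = 7.40e-07). Fstl3, an activin-binding inhibitor, rose (log2 fold change 1.22 ± 0.29, adjusted p = 0.00686), and the co-receptor Tgfbr3 fell (log2 fold change −0.46 ± 0.10, adjusted p = 0.00297).

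In the BMP pathway 3 rose, 2 fell and 25 did not pass, of 30 tested, with a median of 0.00 (8 passed with only the FAP libraries in the fit). The 2 ligands that passed fell and the 2 target genes that passed rose. Bmp7 lay at 11.1, 7.68, 3.58 and 6.07 CPM in DKO, against 20.6, 20.1, 24.6 and 23.5 CPM in WT (log2 fold change −1.65 ± 0.27, adjusted p = 0.000479). Bmp2 lay at 80.6, 88.7, 77.5 and 97.3 CPM in DKO, against 119, 151, 155 and 142 CPM in WT (log2 fold change −0.72 ± 0.14, adjusted p = 0.00157). Neither overlapped between the genotypes. Id1, a target that blocks basic helix-loop-helix factors, lay at 30.96, 22.7, 23.04 and 23.1 CPM in DKO, against 13.2, 12.6, 13.8 and 11.9 CPM in WT (log2 fold change 0.96 ± 0.14, adjusted p = 6.80e-05). Id2, of the same family, rose to 119 ± 11.04 CPM in DKO, against 68.5 ± 2.16 CPM in WT (log2 fold change 0.80 ± 0.09, adjusted p = 2.68e-06). The receptor Bmpr1b rose (log2 fold change 0.89 ± 0.21, adjusted p = 0.00686), whereas Bmpr1a (adjusted p = 0.284) and Bmpr2 (adjusted p = 0.943) did not pass.

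For Wnt signalling, 4 rose, 6 fell and 38 did not pass, of 48 tested, with a median of −0.07. Of 10 inhibitors tested, 3 fell and 7 did not pass. The secreted inhibitor Dkk2 lay at 118, 79.9, 80.1 and 101 CPM in DKO, against 206, 217, 187 and 172 CPM in WT (log2 fold change −1.05 ± 0.23, adjusted p = 0.00743). Sfrp1, also secreted, averaged 68.3 ± 9.60 CPM in DKO and 108 ± 9.83 CPM in WT (log2 fold change −0.66 ± 0.14, adjusted p = 0.00219). Of 7 target genes tested, 1 rose, 1 fell and 5 did not pass. The target that fell was Nkd1, whose product inhibits the pathway inside the cell (log2 fold change −0.995 ± 0.19, adjusted p = 0.00126). The receptor Fzd1 rose to 51.3 ± 6.39 CPM in DKO, against 36.7 ± 2.47 CPM in WT (log2 fold change 0.48 ± 0.10, adjusted p = 0.00227). Rspo4, a secreted enhancer, had 5 to 14 counts in a DKO library and 0 or 1 in a WT library (log2 fold change 3.61 ± 0.64, adjusted p = 0.000534), so its fold change rests on very few reads. Wisp1, a secreted matricellular target, lay at 12.5, 14.9, 15.2 and 14.8 CPM in DKO, against 6.28, 4.05, 3.76 and 5.05 CPM in WT (log2 fold change 1.57 ± 0.16, adjusted p = 5.97e-07). Axin2, a widely used target of the beta-catenin branch, averaged 4.44 ± 0.834 CPM in DKO and 4.03 ± 0.169 CPM in WT and missed the threshold (adjusted p = 0.728).

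Among Notch genes 4 rose, 0 fell and 17 did not pass, of 21 tested, with a median of −0.02. The receptor Notch1 lay at 41.6, 60.9, 50.1 and 51.2 CPM in DKO, against 35.9, 24.3, 25.8 and 33.2 CPM in WT (log2 fold change 0.77 ± 0.18, adjusted p = 0.00895). Its target gene Hey1 rose, at 15.5, 15.4, 16.4 and 17.8 CPM in DKO, against 8.01, 7.60, 6.18 and 7.43 CPM in WT (log2 fold change 1.16 ± 0.12, adjusted p = 8.79e-07). Heyl, another target, rose to 27.3 ± 5.08 CPM in DKO, against 16.6 ± 4.47 CPM in WT (log2 fold change 0.71 ± 0.17, adjusted p = 0.00899). Hes1, also a target, averaged 90.7 ± 6.10 CPM in DKO and 87.5 ± 1.50 CPM in WT and missed the threshold (adjusted p = 0.748). Lfng, which glycosylates Notch receptors, passed with a call lost without DKO replicate 2 (0.0554) or DKO replicate 3 (0.0547) (log2 fold change 0.88 ± 0.23, adjusted p = 0.0162; adjusted p without each library in parentheses). The ligand Jag1 averaged 71.6 ± 5.21 CPM in DKO and 68.7 ± 1.20 CPM in WT and missed the threshold (adjusted p = 0.736). Hedgehog genes gave 0 rose, 2 fell and 10 did not pass, of 12 tested (0 passed without WT 4 and 1 without DKO 2 or DKO 3).

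**Figure D4:**
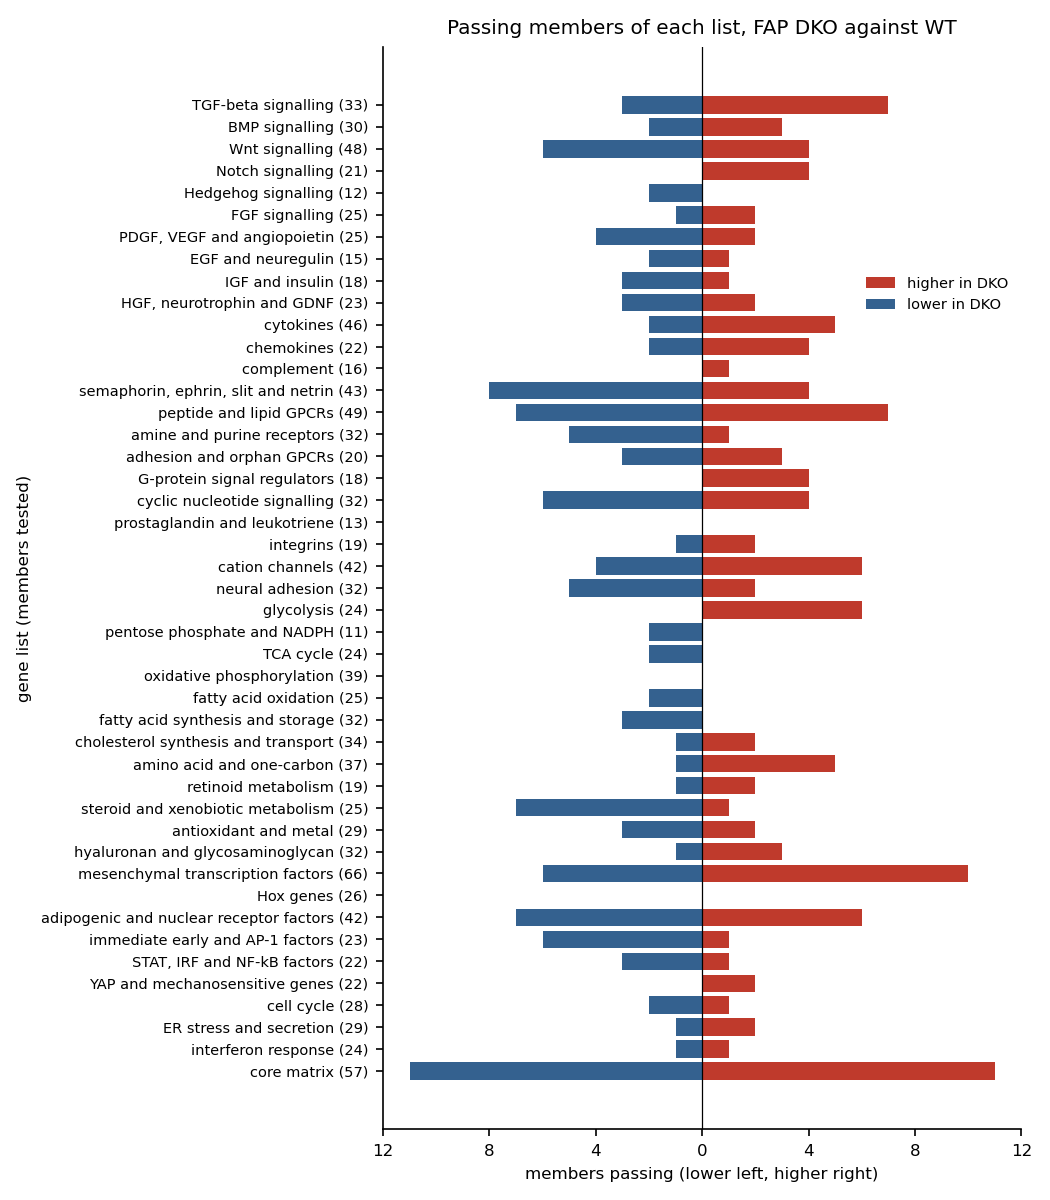
Number of members of each gene list that were higher (right) or lower (left) in DKO than in WT FAP libraries at an edgeR adjusted p below 0.05, with the number of members tested after the name. The Notch, complement, G-protein regulator, glycolysis and YAP lists have passing members on the higher side alone and the prostaglandin, oxidative phosphorylation and Hox lists have none on either side.

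Growth factor genes came next. For FGF genes 2 rose, 1 fell and 22 did not pass, of 25 tested (5 passed with only the FAP libraries in the fit). Fgf21, a secreted stress hormone, lay at 1.03, 1.72, 1.84 and 0.980 CPM in DKO, against 0.314, 0.101, 0.501 and 0 CPM in WT (log2 fold change 2.45 ± 0.50, adjusted p = 0.00193). The feedback phosphatase Dusp6 rose to 51.5 ± 6.05 CPM in DKO, against 31.5 ± 3.54 CPM in WT (log2 fold change 0.71 ± 0.10, adjusted p = 5.33e-05), and Fgfr1 did not pass (adjusted p = 0.422). For PDGF, VEGF and angiopoietin genes 2 rose, 4 fell and 19 did not pass, of 25 tested. Pgf, placental growth factor, lay at 25.8, 26.9, 29.4 and 26.2 CPM in DKO, against 62.02, 88.1, 77.3 and 61.7 CPM in WT (log2 fold change −1.41 ± 0.17, adjusted p = 4.37e-06). Its receptor Flt1 averaged 4.44 ± 3.71 CPM in DKO and 8.73 ± 6.25 CPM in WT without passing (adjusted p = 0.443). Pdgfa, a ligand of Pdgfra, rose to 3.85 ± 0.867 CPM in DKO, against 1.94 ± 0.398 CPM in WT (log2 fold change 0.98 ± 0.24, adjusted p = 0.00769). Tek, the angiopoietin receptor and an endothelial marker, lay at 165, 110.1, 153 and 122 CPM in DKO, against 270.2, 274, 275 and 289.5 CPM in WT (log2 fold change −1.01 ± 0.13, adjusted p = 1.66e-05). The sums of the other 11 endothelial markers overlapped between the genotypes, as given above.

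For the list of HGF, neurotrophin and GDNF genes, 2 rose, 3 fell and 18 did not pass, of 23 tested (3 passed without WT 1 and 10 with only the FAP libraries in the fit). Bdnf, brain-derived neurotrophic factor, lay at 8.11, 18.8, 11.2 and 17.9 CPM in DKO, against 1.18, 2.74, 1.09 and 3.24 CPM in WT (log2 fold change 2.78 ± 0.41, adjusted p = 0.000262). Its receptor Ntrk2 averaged 188 ± 9.71 CPM in DKO and 260.3 ± 8.12 CPM in WT and missed the threshold (adjusted p = 0.146). With only the FAP libraries in the fit, Ntrk2 passed as lower in DKO (edgeR adjusted p = 0.000985). Hgf, the growth factor that activates muscle stem cells, lay at 25.7, 36.3, 43.3 and 39.9 CPM in DKO, against 13.8, 17.6, 13.02 and 17.5 CPM in WT (log2 fold change 1.23 ± 0.19, adjusted p = 0.000116), and its receptor Met did not pass (adjusted p = 0.662). Ret, the GDNF-family receptor kinase, lay at 71.2, 84.6, 113 and 75.1 CPM in DKO, against 214, 186, 168 and 199.6 CPM in WT (log2 fold change −1.16 ± 0.19, adjusted p = 0.000463). The genotypes did not overlap for Bdnf, Hgf or Ret. Ntf3, neurotrophin 3, was a ligand that fell (log2 fold change −0.57 ± 0.16, adjusted p = 0.0204), with its call lost without DKO replicate 1 (0.0699), DKO replicate 4 (0.0894), WT replicate 1 (0.0579) or WT replicate 4 (0.056). Gfra1, the GDNF co-receptor, fell to 99.5 ± 5.26 CPM in DKO, against 126 ± 2.37 CPM in WT (log2 fold change −0.34 ± 0.10, adjusted p = 0.0295), with its call lost without DKO replicate 1 (0.0702), DKO replicate 2 (0.081), WT replicate 1 (0.0659), WT replicate 2 (0.0669) or WT replicate 4 (0.0683). The values in parentheses after a library are edgeR adjusted p without it.

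For IGF and insulin genes 1 rose, 3 fell and 14 did not pass, of 18 tested. Igfbp5, an IGF-binding protein, fell to 1768 ± 415 CPM in DKO, against 3150.2 ± 386 CPM in WT (log2 fold change −0.83 ± 0.19, adjusted p = 0.00647). Igfbp7 rose to 667 ± 62.9 CPM in DKO, against 437 ± 14.9 CPM in WT (log2 fold change 0.61 ± 0.15, adjusted p = 0.00957). The insulin receptor Insr (log2 fold change −0.58 ± 0.12, adjusted p = 0.00241) and the kinase subunit Pik3r1 (log2 fold change −0.50 ± 0.08, adjusted p = 0.000238) were lower. Igf1 itself averaged 397 ± 38.1 CPM in DKO and 540.1 ± 91.9 CPM in WT and missed the threshold (adjusted p = 0.145). With only the FAP libraries in the fit, Igf1 passed as lower in DKO (edgeR adjusted p = 0.0221). EGF and neuregulin genes gave 1 rose, 2 fell and 12 did not pass, of 15 tested (1 passed without DKO 4 or WT 2). Errfi1, an inhibitor of the EGF receptor, fell to 856 ± 56.6 CPM in DKO, against 1229.99 ± 108 CPM in WT (log2 fold change −0.52 ± 0.13, adjusted p = 0.0127).

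Cytokine genes gave 5 rose, 2 fell and 39 did not pass, of 46 tested, with a median of 0.14 (11 passed without DKO 1, 15 with only the FAP libraries in the fit and 11 with the replicate number as a block). Il1rl1, the receptor for interleukin 33, lay at 39.8, 87.6, 41.8 and 38.2 CPM in DKO, against 11.7, 16.01, 17.7 and 18.1 CPM in WT (log2 fold change 1.70 ± 0.33, adjusted p = 0.00294). Il33 averaged 178 ± 26.7 CPM in DKO and 141 ± 14.1 CPM in WT and missed the threshold (adjusted p = 0.31). With only the FAP libraries in the fit, Il33 passed as higher in DKO (edgeR adjusted p = 0.0394). Il18r1, the interleukin 18 receptor, lay at 0.560, 0.470, 0.581 and 0.196 CPM in DKO, against 3.53, 5.57, 6.51 and 1.90 CPM in WT (log2 fold change −3.24 ± 0.55, adjusted p = 0.000546), from 2 to 6 counts in a DKO library and 20 to 78 in a WT library. Tslp, an alarmin cytokine, rose to 38.2 ± 8.39 CPM in DKO, against 17.97 ± 3.52 CPM in WT (log2 fold change 1.09 ± 0.21, adjusted p = 0.00172). Tnfrsf12a, the receptor of TWEAK, rose as well (log2 fold change 0.84 ± 0.17, adjusted p = 0.00311). Lifr, the leukemia inhibitory factor receptor, fell to 86.2 ± 9.30 CPM in DKO, against 128 ± 16.2 CPM in WT (log2 fold change −0.57 ± 0.10, adjusted p = 0.000325). Complement genes gave 1 rose, 0 fell and 15 did not pass, of 16 tested (2 passed without DKO 3, 3 with only the FAP libraries in the fit and 2 with the replicate number as a block). Masp1, a protease of the lectin pathway, was the member that rose (log2 fold change 1.96 ± 0.35, adjusted p = 0.000625).

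Chemokine genes gave 4 rose, 2 fell and 16 did not pass, of 22 tested, with a median of −0.02. Cx3cl1, fractalkine, which is made as a membrane-bound protein, lay at 24.3, 33.7, 35.3 and 33.4 CPM in DKO, against 9.03, 7.19, 7.51 and 5.81 CPM in WT (log2 fold change 2.09 ± 0.17, adjusted p = 8.83e-09). Each DKO library exceeded each WT library. Its receptor Cx3cr1, a gene of macrophages and microglia, averaged 0.424 ± 0.600 CPM in DKO and 0.0785 ± 0.157 CPM in WT and missed the threshold (adjusted p = 0.268). Cxcl16 rose to 27.8 ± 3.01 CPM in DKO, against 17.6 ± 0.603 CPM in WT (log2 fold change 0.66 ± 0.17, adjusted p = 0.0103). The scavenging receptors Ackr3 (log2 fold change −0.73 ± 0.10, adjusted p = 5.36e-05) and Ackr2 (log2 fold change −1.01 ± 0.18, adjusted p = 0.00063) both fell, with Ackr3 at 500.3 ± 23.1 CPM in DKO and 828 ± 58.8 CPM in WT. Cxcl12, a ligand of Ackr3, averaged 277 ± 6.87 CPM in DKO and 264 ± 9.31 CPM in WT and missed the threshold (adjusted p = 0.872). Summed immune markers had the higher range in DKO, with overlap, as given above, with Cd68 at 19.4 ± 3.52 CPM in DKO and 9.06 ± 1.65 CPM in WT (log2 fold change 1.10 ± 0.21, adjusted p = 0.00152).

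Guidance genes gave 4 rose, 8 fell and 31 did not pass, of 43 tested, with a median of −0.20 (6 passed without DKO 2 or WT 3 and 7 without DKO 4 or WT 2). The netrins Ntn4 (80.04 ± 6.29 CPM in DKO and 119 ± 7.16 CPM in WT; log2 fold change −0.58 ± 0.10, adjusted p = 0.000391) and Ntn1 (log2 fold change −0.54 ± 0.13, adjusted p = 0.00656) and the slit receptor Robo1 (log2 fold change −0.47 ± 0.09, adjusted p = 0.00161) were lower. The ephrin receptors Epha4, at 69.2 ± 12.5 CPM in DKO and 44.4 ± 4.79 CPM in WT (log2 fold change 0.64 ± 0.13, adjusted p = 0.00192), and Ephb2 (log2 fold change 0.76 ± 0.18, adjusted p = 0.00783) were higher.

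Ion channel genes gave 6 rose, 4 fell and 32 did not pass, of 42 tested, with a median of 0.01. Piezo1, a channel opened by membrane stretch, lay at 105, 149, 110.1 and 114 CPM in DKO, against 56.2, 57.3, 62.4 and 68.1 CPM in WT (log2 fold change 0.97 ± 0.14, adjusted p = 5.06e-05), and the DKO libraries were all above the WT ones. Cacna1g, a T-type calcium channel, lay at 158, 205, 178 and 180.4 CPM in DKO, against 73.2, 66.5, 60.3 and 79.4 CPM in WT (log2 fold change 1.37 ± 0.15, adjusted p = 1.59e-06). The auxiliary calcium channel subunits Cacna2d1 (log2 fold change 0.65 ± 0.11, adjusted p = 0.000519) and Cacnb3 (log2 fold change 0.74 ± 0.12, adjusted p = 0.00016) rose too. Kcna2, a voltage-gated potassium channel, lay at 9.89, 7.36, 10.4 and 6.76 CPM in DKO, against 34.7, 27.8, 22.5 and 25.2 CPM in WT (log2 fold change −1.67 ± 0.23, adjusted p = 5.93e-05), lower in each DKO library.

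Among neural adhesion genes, too, more fell than rose: 2 rose, 5 fell and 25 did not pass, of 32 tested, with a median of −0.44 (4 passed without WT 2). Cntn1, a contactin of axons and glia, lay at 1.68, 3.45, 4.36 and 4.02 CPM in DKO, against 16.2, 36.5, 10.5 and 23.3 CPM in WT (log2 fold change −2.67 ± 0.46, adjusted p = 0.0013). Nrxn2, a neurexin, lay at 2.05, 2.98, 2.42 and 2.55 CPM in DKO, against 11.3, 9.73, 8.68 and 7.52 CPM in WT (log2 fold change −1.91 ± 0.26, adjusted p = 3.68e-05). Lrrtm3 averaged 1.09 ± 0.828 CPM in DKO and 7.11 ± 2.03 CPM in WT (log2 fold change −2.66 ± 0.40, adjusted p = 0.000129). The Schwann cell sums had the lower range in DKO, with overlap, with the Schwann gene Cdh19 at 1.80 ± 0.490 CPM in DKO and 5.22 ± 0.604 CPM in WT (log2 fold change −1.55 ± 0.24, adjusted p = 0.000153), and the part of such cells in these values was not tested. The integrin list gave 2 rose, 1 fell and 16 did not pass, of 19 tested (1 passed without DKO 4 or WT 3 and 6 with only the FAP libraries in the fit). Itga1, a collagen receptor subunit, rose to 29.4 ± 3.45 CPM in DKO, against 17.8 ± 3.41 CPM in WT (log2 fold change 0.72 ± 0.14, adjusted p = 0.00113).

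In metabolism, glycolytic genes passed on 1 side: 6 rose, 0 fell and 18 did not pass, of 24 tested, with a median of 0.22 (3 passed without DKO 2 or DKO 4). Ldha, which makes lactate, lay at 304, 402, 360.02 and 383 CPM in DKO, against 263, 288, 289 and 248 CPM in WT (log2 fold change 0.41 ± 0.10, adjusted p = 0.00992). Pgk1, an X-linked glycolytic kinase gene, lay at 122, 130.2, 123 and 134 CPM in DKO, against 103, 104, 100.3 and 92.6 CPM in WT (log2 fold change 0.35 ± 0.08, adjusted p = 0.00805). The glucose transporter Slc2a3 passed (log2 fold change 0.80 ± 0.20, adjusted p = 0.00959), with its call lost without DKO replicate 3 (0.0511). Hk2, which phosphorylates glucose, averaged 533 ± 104 CPM in DKO and 484 ± 57.3 CPM in WT (adjusted p = 0.689) and Gapdh averaged 539 ± 42.1 CPM in DKO and 479 ± 27.1 CPM in WT (adjusted p = 0.332). Neither passed. None of 39 oxidative phosphorylation genes passed in edgeR, with 4 at an unadjusted p under 0.05 and 0 called by DESeq2 (1 passed with only the FAP libraries in the fit). The TCA cycle gave 0 rose, 2 fell and 22 did not pass, of 24 tested (1 passed without DKO 2 or WT 1). Suclg2 was one that fell (log2 fold change −0.49 ± 0.10, adjusted p = 0.00327). In the pentose phosphate list 0 rose, 2 fell and 9 did not pass, of 11 tested (1 passed without DKO 1, DKO 4, WT 1, WT 2 or WT 3). G6pdx, the X-linked gene of its entry enzyme, lay at 34.5, 28.04, 29.8 and 26.1 CPM in DKO, against 47.4, 43.7, 44.2 and 43.9 CPM in WT (log2 fold change −0.60 ± 0.11, adjusted p = 0.000796).

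Lipid lists had shares of calls near that of all genes. Fatty acid oxidation gave 0 rose, 2 fell and 23 did not pass, of 25 tested (0 passed without DKO 2 and 1 without DKO 4, WT 1, WT 2 or WT 3). Fatty acid synthesis and storage gave 0 rose, 3 fell and 29 did not pass, of 32 tested (0 passed without WT 1, 1 without DKO 2, DKO 3 or WT 2 and 6 with only the FAP libraries in the fit). Cholesterol genes gave 2 rose, 1 fell and 31 did not pass, of 34 tested (0 passed without WT 3, 1 without DKO 2, DKO 4, WT 2 or WT 4 and 5 with the replicate number as a block). Fasn (adjusted p = 0.584), which builds fatty acids, and Cpt1a (adjusted p = 0.73), which sets their entry into mitochondria, did not pass.

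Amino acid genes gave 5 rose, 1 fell and 31 did not pass, of 37 tested, with a median of 0.16 (10 passed without DKO 1 and 10 with only the FAP libraries in the fit). Asns, asparagine synthetase, lay at 23.8, 30.6, 32.5 and 25.96 CPM in DKO, against 11.1, 18.8, 18.8 and 16.5 CPM in WT (log2 fold change 0.79 ± 0.18, adjusted p = 0.00534). Got1, the cytosolic aspartate aminotransferase, lay at 40.5, 65.2, 60.2 and 64.9 CPM in DKO, against 38.8, 38.00, 39.6 and 39.3 CPM in WT (log2 fold change 0.56 ± 0.14, adjusted p = 0.00859). Slc3a2, a subunit of amino acid transporters, averaged 369.7 ± 83.4 CPM in DKO and 229 ± 30.03 CPM in WT (log2 fold change 0.69 ± 0.15, adjusted p = 0.00441). Glul, glutamine synthetase, went the other way, at 400.5, 436, 485 and 425 CPM in DKO, against 765, 879, 838 and 676 CPM in WT (log2 fold change −0.85 ± 0.12, adjusted p = 3.45e-05). Psat1, of serine synthesis, passed (log2 fold change 0.70 ± 0.18, adjusted p = 0.0119), with its call lost without DKO replicate 2 (0.057). The amino acid response element, searched as TGATGNAA on both strands, is known for binding ATF4 in genes of amino acid supply. It was present in the promoter windows of 2 of the 6 passing genes with a window and 3 of the 23 that did not pass. Of 32851 single windows 3.97% held it. A gene counted if any of its windows matched, so the counts of genes and the share of windows are unlike measures. The 2 windows are shown because both genes rose, each 250 bases before to 50 after the gene's start, from RefSeq on GRCm38.p6, minus strand, at chr6:7693160-7693459 for Asns and chr19:43524556-43524855 for Got1, with the element in capitals.
Asns: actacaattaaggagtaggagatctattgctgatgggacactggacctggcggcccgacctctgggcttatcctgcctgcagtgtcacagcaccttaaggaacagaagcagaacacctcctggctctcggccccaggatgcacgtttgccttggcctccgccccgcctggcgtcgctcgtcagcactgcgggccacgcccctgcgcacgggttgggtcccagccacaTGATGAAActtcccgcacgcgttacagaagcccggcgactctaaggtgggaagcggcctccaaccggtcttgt
Got1: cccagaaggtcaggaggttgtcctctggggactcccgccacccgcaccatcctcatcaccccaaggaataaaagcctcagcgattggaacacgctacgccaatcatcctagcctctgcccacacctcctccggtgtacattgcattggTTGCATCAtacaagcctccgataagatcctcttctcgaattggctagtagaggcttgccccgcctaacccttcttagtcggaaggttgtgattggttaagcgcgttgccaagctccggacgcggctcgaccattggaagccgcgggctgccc
A match describes the letters in the window and shows no binding.

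Of steroid and xenobiotic enzymes 1 rose, 7 fell and 17 did not pass, of 25 tested, with a median of −0.26 (5 passed without DKO 4 or WT 2). The glutathione transferases Gstm1, at 261 ± 28.7 CPM in DKO and 442 ± 10.5 CPM in WT (log2 fold change −0.76 ± 0.14, adjusted p = 0.000783), Gstt1 (log2 fold change −0.68 ± 0.14, adjusted p = 0.002) and Gstp1 (log2 fold change −0.40 ± 0.09, adjusted p = 0.0035) all fell. These families hold close copies, and no source used here says how reads shared between copies were counted, so their values are uncertain. Ces1d, a carboxylesterase, fell to 33.4 ± 7.29 CPM in DKO, against 72.5 ± 12.3 CPM in WT (log2 fold change −1.11 ± 0.23, adjusted p = 0.00411). Cyp1b1 was the member that rose, to 72.7 ± 13.6 CPM in DKO, against 41.9 ± 2.38 CPM in WT (log2 fold change 0.79 ± 0.18, adjusted p = 0.0062). Antioxidant and metal genes gave 2 rose, 3 fell and 24 did not pass, of 29 tested (2 passed without DKO 2, 3 without DKO 3, DKO 4 or WT 2 and 8 with only the FAP libraries in the fit). Ceruloplasmin, Cp, fell to 184 ± 38.2 CPM in DKO, against 288 ± 12.5 CPM in WT (log2 fold change −0.65 ± 0.12, adjusted p = 0.000658). Gpx3, a secreted peroxidase, fell to 567 ± 112 CPM in DKO, against 913 ± 101 CPM in WT (log2 fold change −0.69 ± 0.16, adjusted p = 0.00521). Retinoid genes gave 2 rose, 1 fell and 16 did not pass, of 19 tested (5 passed without DKO 1, 7 without DKO 3 and 5 with only the FAP libraries in the fit). The retinoic acid-binding protein Crabp2 rose (log2 fold change 1.04 ± 0.23, adjusted p = 0.00358), and the retinaldehyde dehydrogenase Aldh1a3 fell (log2 fold change −0.86 ± 0.21, adjusted p = 0.011).

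Hyaluronan and glycosaminoglycan genes gave 3 rose, 1 fell and 28 did not pass, of 32 tested, with a median of 0.11 (7 passed without DKO 1 and 11 with only the FAP libraries in the fit). Cd44, the main hyaluronan receptor, lay at 185, 304, 232 and 268 CPM in DKO, against 133, 157, 159.7 and 148 CPM in WT (log2 fold change 0.73 ± 0.14, adjusted p = 0.000972). Tmem2, a cell-surface hyaluronidase, rose to 39.02 ± 8.41 CPM in DKO, against 23.4 ± 2.39 CPM in WT (log2 fold change 0.73 ± 0.13, adjusted p = 0.000785). For matrix genes themselves, 11 rose, 11 fell and 35 did not pass, of 57 tested, with a median of 0.04.

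Mesenchymal transcription factors gave 10 rose, 6 fell and 50 did not pass, of 66 tested, with a median of 0.00. Runx1, a runt-domain factor of blood and mesenchyme, lay at 51.7, 111, 82.5 and 88.2 CPM in DKO, against 24.1, 29.7, 38.98 and 28.1 CPM in WT (log2 fold change 1.46 ± 0.23, adjusted p = 0.000471). Runx2, the related factor of bone formation, lay at 13.99, 14.6, 15.5 and 14.99 CPM in DKO, against 7.77, 8.71, 5.84 and 8.38 CPM in WT (log2 fold change 0.95 ± 0.17, adjusted p = 0.000765). Both were higher in each DKO library than in any WT library. Scx, a factor that defines tendon cells, had 19 to 30 counts in a DKO library and 6 to 10 in a WT library (log2 fold change 1.73 ± 0.36, adjusted p = 0.00327). Barx2, a homeobox factor, rose to 4.55 ± 1.50 CPM in DKO, against 0.989 ± 0.384 CPM in WT (log2 fold change 2.15 ± 0.33, adjusted p = 0.000118). Sox8 rose to 14.1 ± 1.66 CPM in DKO, against 6.67 ± 1.08 CPM in WT (log2 fold change 1.07 ± 0.17, adjusted p = 0.000172). Sox9, of cartilage, fell to 24.9 ± 2.77 CPM in DKO, against 39.3 ± 4.05 CPM in WT (log2 fold change −0.66 ± 0.12, adjusted p = 0.000546). Ebf2, of the adipose lineage, fell to 120.2 ± 18.7 CPM in DKO, against 193 ± 14.2 CPM in WT (log2 fold change −0.68 ± 0.12, adjusted p = 0.000577). Prrx2 rose (log2 fold change 0.79 ± 0.15, adjusted p = 0.000958). Runx2 and Prrx2 lie outside the rule for named genes and were picked after their values were seen. None of 26 Hox genes passed in edgeR, with 6 at an unadjusted p under 0.05 and 2 called by DESeq2 (1 passed without WT 3 or WT 4, 2 without DKO 3, 4 with only the FAP libraries in the fit and 2 with the replicate number as a block).

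Adipogenic factors and nuclear receptors gave 6 rose, 7 fell and 29 did not pass, of 42 tested, with a median of −0.19 (5 passed without DKO 2, DKO 4 or WT 1, 7 without WT 2 and 8 without WT 4). Pparg, the master factor of fat cells, averaged 3.46 ± 0.933 CPM in DKO and 3.97 ± 1.43 CPM in WT and missed the threshold (adjusted p = 0.82). Klf2 lay at 70.8, 69.1, 54.9 and 65.7 CPM in DKO, against 128, 124, 144 and 153 CPM in WT (log2 fold change −1.08 ± 0.22, adjusted p = 0.00422), lower in each DKO library. It is known as a flow-responsive factor of endothelium, and the part of endothelial cells in its values was not tested. Klf9, a target of the glucocorticoid receptor, fell to 184 ± 23.2 CPM in DKO, against 278 ± 18.9 CPM in WT (log2 fold change −0.59 ± 0.11, adjusted p = 0.00123). The thyroid hormone receptor Thra fell (log2 fold change −0.38 ± 0.09, adjusted p = 0.0106). Bhlhe41, a clock repressor, rose to 23.9 ± 3.63 CPM in DKO, against 12.5 ± 2.45 CPM in WT (log2 fold change 0.94 ± 0.15, adjusted p = 0.000159).

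Immediate early genes are induced within minutes of many stimuli, tissue dissociation among them. In this list 1 rose, 6 fell and 16 did not pass, of 23 tested, with a median of −0.15 (3 passed without WT 1). Fos lay at 2426, 2348, 2758 and 2391 CPM in DKO, against 4058, 3476, 3410.04 and 3823 CPM in WT (log2 fold change −0.57 ± 0.11, adjusted p = 0.00116). Fosb averaged 962 ± 60.7 CPM in DKO and 1566 ± 81.8 CPM in WT (log2 fold change −0.70 ± 0.14, adjusted p = 0.00121). Btg2, an antiproliferative early gene, lay at 460.3, 558, 673 and 501 CPM in DKO, against 948, 902, 792 and 849 CPM in WT (log2 fold change −0.67 ± 0.12, adjusted p = 0.000566). The DKO libraries lay below the WT libraries for all 3. Jun (adjusted p = 0.154) and Junb (adjusted p = 0.68) did not pass. The cyclic AMP response element TGACGTCA, which reads the same on both strands, was present in 2 of the 5 passing genes with a window. These were Btg2 and Maff, and none of the 11 others held it. Of 32851 single windows 1.79% held it, an unlike measure, since a gene counted if any of its windows matched. Maff was the member that rose (log2 fold change 0.51 ± 0.14, adjusted p = 0.0176), with its call lost without DKO replicate 2 (0.102), WT replicate 1 (0.0721) or WT replicate 2 (0.0509). The Btg2 window is shown as the gene that fell with this element, in capitals, at chr1:134079106-134079405 on the minus strand of GRCm38.p6, from RefSeq.
Btg2: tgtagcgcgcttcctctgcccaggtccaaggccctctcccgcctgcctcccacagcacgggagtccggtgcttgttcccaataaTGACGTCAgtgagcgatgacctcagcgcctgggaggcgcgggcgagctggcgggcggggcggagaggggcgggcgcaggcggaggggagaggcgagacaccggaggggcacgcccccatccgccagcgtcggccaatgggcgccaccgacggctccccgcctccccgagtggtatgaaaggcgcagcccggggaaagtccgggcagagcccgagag
The 2 genes with the cyclic AMP response element went in opposite directions. A second motif, the CArG box, was searched in the windows of the same list. It was present in 1 of the 5 passing genes (20%) and 2 of the 11 others (18.2%).

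Among STAT, IRF and NF-kB factors 1 rose, 3 fell and 18 did not pass, of 22 tested, with a median of −0.07. Irf1, an interferon-response factor, lay at 317, 403, 416 and 367 CPM in DKO, against 608, 667, 596 and 572 CPM in WT (log2 fold change −0.70 ± 0.13, adjusted p = 0.000602). Stat5b (log2 fold change −0.46 ± 0.09, adjusted p = 0.00159) and Nfkbiz (log2 fold change −0.46 ± 0.12, adjusted p = 0.0144) fell as well. Interferon response genes gave 1 rose, 1 fell and 22 did not pass, of 24 tested. Oas2 rose (log2 fold change 1.48 ± 0.34, adjusted p = 0.00518). Xaf1 fell, with 12.6 ± 2.04 CPM in DKO and 27.6 ± 4.57 CPM in WT (log2 fold change −1.13 ± 0.16, adjusted p = 5.33e-05). Cell cycle genes gave 1 rose, 2 fell and 25 did not pass, of 28 tested (5 passed with only the FAP libraries in the fit). Ccnd1, cyclin D1, fell to 8.17 ± 2.99 CPM in DKO, against 18.8 ± 3.71 CPM in WT (log2 fold change −1.17 ± 0.19, adjusted p = 0.000214). Mcm6, of the replication helicase, fell (log2 fold change −1.08 ± 0.21, adjusted p = 0.00158), and Ccne1, cyclin E1, rose (log2 fold change 1.02 ± 0.19, adjusted p = 0.000945). For YAP and mechanosensitive genes 2 rose, 0 fell and 20 did not pass, of 22 tested (1 passed without DKO 2, DKO 4, WT 1, WT 2 or WT 3, 4 without DKO 1 and 7 with only the FAP libraries in the fit). Ctgf was one of the 2, whereas Cyr61 averaged 1383 ± 16.1 CPM in DKO and 1306 ± 117 CPM in WT (adjusted p = 0.669) and Ankrd1 0.650 ± 0.408 CPM in DKO and 0.715 ± 0.206 CPM in WT (adjusted p = 0.957) without passing. Genes given as not passing that are no ligand or receptor of a passing gene, such as these, were picked as well-known members with their values in view. ER stress and secretion genes gave 2 rose, 1 fell and 26 did not pass, of 29 tested (1 passed without DKO 4 or WT 1, 7 without DKO 1, 7 with only the FAP libraries in the fit and 5 with the replicate number as a block).

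The rule for named genes also took the 15 higher and 15 lower genes of smallest p outside the core matrix list. Among the lower ones were the sorting receptors Sorl1 and Sort1, which carry cargo between the Golgi and endosomes. Sorl1 lay at 27.5, 25.9, 28.4 and 23.8 CPM in DKO, against 71.6, 68.5, 65.9 and 68.5 CPM in WT (log2 fold change −1.38 ± 0.09, adjusted p = 3.19e-10). Sort1 lay at 26.5, 20.4, 23.04 and 18.03 CPM in DKO, against 59.4, 50.9, 52.4 and 56.7 CPM in WT (log2 fold change −1.32 ± 0.12, adjusted p = 6.03e-08). Both were lower in each DKO library than in any WT library. Cspg4, the NG2 proteoglycan of pericytes and progenitors, fell to 35.7 ± 3.88 CPM in DKO, against 74.7 ± 10.8 CPM in WT (log2 fold change −1.07 ± 0.12, adjusted p = 1.97e-06). Bche, butyrylcholinesterase, fell to 6.64 ± 1.22 CPM in DKO, against 18.3 ± 3.40 CPM in WT (log2 fold change −1.44 ± 0.18, adjusted p = 7.49e-06). Abca5, a lipid transporter family member, fell to 46.6 ± 8.33 CPM in DKO, against 104 ± 10.5 CPM in WT (log2 fold change −1.15 ± 0.13, adjusted p = 3.44e-06). C1qtnf1, a secreted C1q-domain protein, fell to 152 ± 16.97 CPM in DKO, against 335 ± 34.5 CPM in WT (log2 fold change −1.13 ± 0.14, adjusted p = 1.61e-05).

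Among the higher ones, Mical2, an actin-oxidising enzyme, lay at 51.02, 63.3, 63.4 and 56.1 CPM in DKO, against 21.1, 21.7, 19.9 and 19.5 CPM in WT (log2 fold change 1.50 ± 0.14, adjusted p = 1.88e-07). Actn1, an actin crosslinker, lay at 54.5, 61.9, 50.8 and 54.97 CPM in DKO, against 31.7, 25.6, 26.4 and 31.04 CPM in WT (log2 fold change 0.95 ± 0.10, adjusted p = 4.43e-07). Kif1a, a kinesin motor best known in axons, rose to 9.76 ± 1.98 CPM in DKO, against 1.93 ± 0.603 CPM in WT (log2 fold change 2.32 ± 0.24, adjusted p = 4.06e-07). Wipf3, of a family that binds WASP proteins, rose to 9.65 ± 1.22 CPM in DKO, against 2.12 ± 0.416 CPM in WT (log2 fold change 2.16 ± 0.22, adjusted p = 5.47e-07). The hyaluronan-associated protein Itih2 rose to 72.3 ± 13.5 CPM in DKO, against 21.04 ± 2.39 CPM in WT (log2 fold change 1.78 ± 0.16, adjusted p = 2.62e-07). Frem1, a basement membrane protein, rose to 27.2 ± 5.94 CPM in DKO, against 9.94 ± 1.04 CPM in WT (log2 fold change 1.45 ± 0.13, adjusted p = 9.29e-08). AI506816, a transcript with no assigned role here, had 75 to 193 counts in a DKO library and 2 to 6 in a WT library (log2 fold change 5.49 ± 0.47, adjusted p = 4.89e-07).

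The DKO effect in FAP was then set against that in Misc, the other population of the series with 4 libraries a genotype (the design text has FB in its place), by the interaction term of the same fit. It differed for 396 of 14179 genes (2.79%), 194 of them (1.37%) more positive in FAP and 202 (1.42%) more negative. Replicate numbers pair FAP with Misc libraries, and with each number of a genotype as a block the count was 1246 of 13133 genes (9.49%), 761 more positive and 485 more negative. Of the 1520 genes called in FAP, 172 (11.3%) had an effect that differed from that in Misc, and 389 in the blocked fit. In Misc, 781 of the 1520 were called in the same direction and 33 in the opposite one. The share of all genes called in Misc is not given here. Whether these counts exceed what that share alone would give cannot be told from them. FAP and Misc share no control libraries, although replicates of 1 number may come from the same animals.

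Genes of several groups above were among those that differed, and each named here also passed in the blocked fit. Ctgf had a log2 fold change of 1.50 ± 0.16 in FAP and −0.08 ± 0.16 in Misc (difference 1.59 ± 0.22, adjusted p = 0.000121). Wisp1 had 1.57 ± 0.16 in FAP and −0.34 ± 0.12 in Misc (difference 1.91 ± 0.21, adjusted p = 5.25e-06). Neither passed in Misc (adjusted p = 0.757 for Ctgf and 0.0582 for Wisp1). Cacna1g had 1.37 ± 0.15 in FAP and −0.12 ± 0.14 in Misc (difference 1.49 ± 0.21, adjusted p = 0.000141), and Prkg2 −1.998 ± 0.21 in FAP and 0.16 ± 0.19 in Misc (difference −2.16 ± 0.28, adjusted p = 5.39e-05). Actn1 had 0.95 ± 0.10 in FAP and 0.00 ± 0.09 in Misc (difference 0.95 ± 0.13, adjusted p = 0.000125). For Bmpr1b the effect was 0.89 ± 0.21 in FAP and −1.34 ± 0.14 in Misc (difference 2.23 ± 0.25, adjusted p = 8.49e-06), opposite in sign. Hey1 rose in both populations, with a smaller effect in FAP, 1.16 ± 0.12 against 1.995 ± 0.12 in Misc (difference −0.84 ± 0.18, adjusted p = 0.00764).

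For some leading genes the fit without the block did not separate FAP from Misc, and the blocked fit separated 1 of the 3 given here. P2rx7 had 2.19 ± 0.17 in FAP and 1.51 ± 0.15 in Misc (difference 0.68 ± 0.22, adjusted p = 0.13), and passed in the blocked fit (difference 0.72, adjusted p = 0.00226). F2rl1 had 3.08 ± 0.23 in FAP and 3.77 ± 0.25 in Misc (difference −0.69 ± 0.35, adjusted p = 0.44; adjusted p = 0.146 with the block). Sort1 had −1.32 ± 0.12 in FAP and −1.38 ± 0.12 in Misc (difference 0.07 ± 0.17, adjusted p = 0.925; adjusted p = 0.805 with the block). These values do not show that the effects were equal. Against SMP, with 2 libraries a genotype, the DKO effect in FAP differed for 1465 genes (10.3%), 697 (4.92%) more positive in FAP and 768 (5.42%) more negative.

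**Figure D5:**
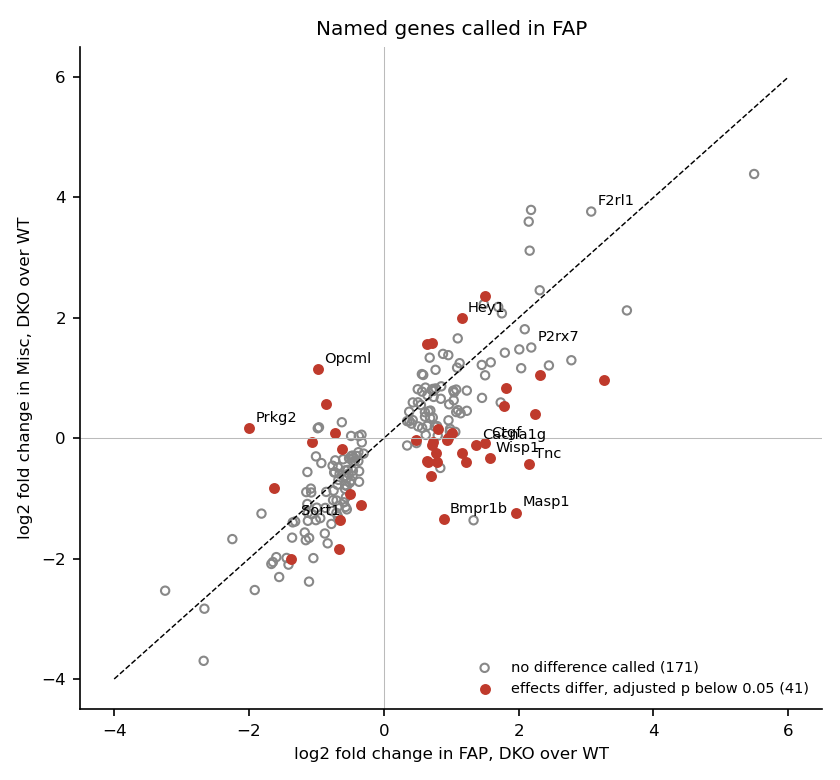
Log2 fold change of DKO over WT in FAP (x) against that in Misc (y) for the named genes called in FAP. Each point is 1 gene, filled where the 2 effects differ at an edgeR interaction adjusted p below 0.05, the dashed line marks equal effects, and Ctgf, Wisp1, Cacna1g and Prkg2 lie far from it.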

How the data were processed

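Raw counts per gene were deposited by the authors for 20 libraries. Reads were mapped with OSA to mm10 with RefSeq annotation, per the series design text. The submitters' processing notes name DESeq2, with no version. Neither the counting tool nor its use of strand is given in the sources used here, so a gene cannot be told apart from one that overlaps it on the other strand. Of 24393 genes, 24312 matched RefSeq GRCm38.p6 by identifier, and 52 blank or date-like symbols were restored. Genes were filtered by edgeR's filterByExpr (minimum count 10, minimum total 15), which left 14179, and counts were TMM-scaled.

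A robust quasi-likelihood model in edgeR 4.0.16 (R 4.3.3) was fitted to all 6 groups without a block, and an adjusted p (Benjamini-Hochberg) below 0.05 was called. Standard errors were derived from each log2 fold change and its F statistic. DESeq2 1.42.0 was an alternative. The edgeR step was tested on simulated data. Depth was 6.74 to 13.04 M counts per FAP library. Deviations from group means correlated between a FAP and a Misc library with 1 number at 0.181 to 0.343 (DKO) and 0.175 to 0.234 (WT). For other numbers they correlated at −0.184 to 0.063 (DKO) and −0.176 to 0.041 (WT), so numbers pair FAP with Misc. This pairing comes from the data, and no label states it.

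The comparison, its members and the gene lists were chosen with earlier results of these data known. Named genes were the 15 higher and 15 lower of smallest p with mean CPM of at least 5 outside the core matrix list, up to 6 passing genes per list, uncalled ligands or receptors of a passing gene, and Des, Syne1, Pdgfra, Ly6a and Cd248. Genes named outside this rule were picked after their values were seen. Of the 216 genes the rule took, 153 are named in the text, and the others are not reported here.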

Additional observations from a re-analysis of the deposited data

Results flagged for a closer look

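Single libraries stood far from the other 3 of their group in 27 of 396 groups of 4 values, 6.82%, by a rule that chance meets in about 1 of 20 groups. FAP DKO replicate 1 was far above its group for Flt1 (9.98 CPM), Id1 (30.96 CPM), Ptprc (1.77 CPM) and summed immune markers (82.8 CPM) and far below its group for Wisp1 (12.5 CPM). FAP DKO replicate 2 was far above its group for Fkbp5 (48.9 CPM), Il1rl1 (87.6 CPM) and Scx (4.70 CPM) and far below its group for Bmpr1a (135 CPM), Gstp1 (49.04 CPM) and Pde5a (10.7 CPM). FAP DKO replicate 3 was far above its group for Lrrtm3 (2.32 CPM), Sorcs2 (61.6 CPM) and Tgfbr2 (616 CPM). FAP DKO replicate 4 was far below its group for Gstt1 (43.8 CPM). FAP WT replicate 1 was far above its group for Adcy5 (33.4 CPM), Cx3cr1 (0.314 CPM), F2rl1 (2.51 CPM), G6pdx (47.4 CPM), Gstp1 (78.1 CPM), Ptprc (1.81 CPM), Wipf3 (2.75 CPM), summed endothelial markers (438 CPM) and summed immune markers (32.6 CPM) and far below its group for Klf9 (249.6 CPM). FAP WT replicate 2 was far below its group for Ntn1 (346 CPM). FAP WT replicate 3 was far below its group for Pde5a (24.96 CPM).

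The DKO effect in FAP differed from that in Misc for 396 genes and from that in SMP for 1465. Among the genes named in the text it differed from Misc for 39, by the interaction term of edgeR at an adjusted p below 0.05, and each difference of log2 fold changes follows as FAP minus Misc. The FAP effect was the more positive one for Actn1 0.95, Axin2 0.86, Bhlhe41 0.96, Bmpr1b 2.23, Cacna1g 1.49, Ccne1 0.94, Col8a1 1.83, Ctgf 1.59, Cyp1b1 1.18, Epha4 1.02, Fstl3 1.62, Fzd1 0.51, Gfra1 0.78, Id2 0.64, Itga1 0.83, Itih2 1.25, Kif1a 1.28, Masp1 3.20, Meox1 0.98, Met 1.50, Pde4d 1.02, Piezo2 1.31, Pik3r1 0.42, Psat1 1.32, Sfrp1 1.18, Sorcs2 0.74, Sorl1 0.62, Tacr1 3.01, Thbs4 2.29, Tmem2 0.80, Tnc 2.58 and Wisp1 1.91. It was the more negative one for Aldh1a3 −1.42, Hey1 −0.84, Heyl −0.87, Jag1 −1.06, Mical2 −0.86, Nt5e −1.01 and Prkg2 −2.16. A more positive difference need not be a rise in FAP. Sorl1, Sorcs2, Sfrp1, Pik3r1 and Gfra1 had negative effects in both populations, the larger ones in Misc. Their log2 fold changes in Misc were −1.998, −1.496, −1.84, −0.92 and −1.12, in that order. Hey1, Heyl and Mical2 had positive effects in both, again larger in Misc (1.995, 1.58 and 2.36). Axin2, Met, Tacr1 and Jag1 did not pass in FAP. No explanation was tested for these values.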

How the results depend on the processing

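No named gene changed direction under any alternative. The 1520 genes called became 932 to 1696 with 1 FAP library left out, 511 to 917 of them higher and 421 to 779 lower, and 737 (418 higher, 319 lower) at an adjusted p below 0.01. DESeq2 called 1781, and 2214 passed with only FAP libraries in the fit. With DKO replicate 3 as the only FAP DKO library, an alternative chosen after seeing the data, 234 were called (159 higher, 75 lower). The replicate block gave 1568, and with only FAP libraries 2267 (1193 higher). Replicate numbers of FAP DKO and FAP WT correlated at −0.056 to 0.292 for the same number and −0.205 to 0.161 for others. The highest value, 0.292, was that of DKO 1 with WT 1. On principal component 2 (15.9% of the variance) these lay at 37.8 and 19.3, and the other FAP libraries at −15 to −3.7. Of 8 libraries, 3 correlated best with their own number, so the numbers were not taken to pair genotypes.

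The 396 genes that differed from Misc became 279 to 362 with 1 FAP library left out, 127 (79 more positive, 48 more negative) with DKO replicate 3 alone, 160 (81 more positive, 79 more negative) at an adjusted p below 0.01 and 1246 (761 more positive, 485 more negative) with the block by genotype and number. The 1465 that differed from SMP became 1098 to 1456 with 1 FAP library left out, 599 (339 more positive, 260 more negative) with DKO replicate 3 alone and 538 (297 more positive, 241 more negative) at an adjusted p below 0.01. The causes were not tested. Of 212 named genes called, 156 were called with each FAP library left out in turn. DKO replicate 2 was the shallowest FAP library, at 6.74 M counts, and few counts limit the precision of low genes.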

Other observations

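Some gene groups were looked at after their values were seen, so they are given as descriptions. Beside Sort1 and Sorl1, the third sortilin family receptor to pass was Sorcs2, which averaged 51.3 ± 6.95 CPM in DKO and 86.8 ± 4.83 CPM in WT (log2 fold change −0.76 ± 0.11, adjusted p = 4.31e-05). Of the 5 family members tested, 0 rose and 3 fell, with a median log2 fold change of −1.38. Piezo2, the second stretch-activated Piezo channel, averaged 38.7 ± 10.3 CPM in DKO and 22.4 ± 4.65 CPM in WT (log2 fold change 0.79 ± 0.22, adjusted p = 0.0308), with its call lost without DKO replicate 1 (0.0848), DKO replicate 2 (0.0682), DKO replicate 4 (0.0901), WT replicate 1 (0.101) or WT replicate 2 (0.0888), so both Piezo genes were higher in DKO. Of 17 glucocorticoid-induced genes, 0 rose, 5 fell and 12 did not pass, with a median of −0.51. The 5 were Klf9, Glul and Errfi1, given above, Fkbp5 (log2 fold change −1.04 ± 0.30, adjusted p = 0.0369) and Pdk4 (log2 fold change −0.51 ± 0.14, adjusted p = 0.0212). The call of Fkbp5 was lost without DKO replicate 1 (0.0728), DKO replicate 2 (0.0587), DKO replicate 3 (0.083), DKO replicate 4 (0.0986), WT replicate 1 (0.0646), WT replicate 2 (0.0903) or WT replicate 3 (0.0893), and that of Pdk4 without DKO replicate 2 (0.0801), DKO replicate 3 (0.0779), WT replicate 2 (0.0664) or WT replicate 4 (0.0619).

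Called genes near Des, Syne1 and F2r were also counted. Within 5 Mb of Des, 5 were higher and 8 lower of 67 tested (19.4%). Within 5 Mb of Syne1, 1 was higher and 2 lower of 28 (10.7%). Within 5 Mb of F2r, 8 were higher and 2 lower of 60 (16.7%), F2rl1 and Thbs4 among them. The share over all genes tested was 10.7%.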
